A study of Mus musculus with 8 samples.

Results

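The genes described here are 54 genes whose proteins build the spermatid and the mature sperm, chosen by name from the chromatin, acrosome, flagellum, ion channel, kinase and energy metabolism genes of late male germ cells. All 54 had a probe on the array, among 19751 genes that could be named. Their mRNA was measured in VV3 ESCs, a mouse ESC line with a *Vasa*::Venus reporter that grows on mitomycin C-inactivated STO feeder cells. One group received siRNA for *L3mbtl2* (*L3mbtl2*-KD, 4 biological replicates) and the other AllStars siRNA, which silences no gene (control, 4 biological replicates), and each sample was hybridised to 1 one-colour Agilent array. The methods describe the *L3mbtl2*-KD cells as sorted by FACS for *Vasa* reporter signal, and do not state for the arrays whether control cells were sorted, so that effects of siRNA and sort cannot be told apart. L3MBTL2 is a subunit of the PCGF6-PRC1 repressor complex, and the comparison shows which late germ cell genes differed in ESCs after its depletion.

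As background, most of these genes are known for roles after meiosis, and some, such as *Odf2*, also act in other cells. Round spermatids switch on genes for protamines and transition proteins, which replace histones and compact the sperm nucleus, and form the acrosome, a secretory vesicle over the nucleus that carries proteases and egg-binding proteins. At the other pole the flagellum is assembled from an axoneme, outer dense fibres and a fibrous sheath, and sperm-specific enzymes and CatSper calcium channels serve its motility. In the testis many of these genes depend on the transcriptional activator CREM.

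Of the 54 genes, 25 were bright enough to be tested, and of these 1 was up-regulated and 1 was down-regulated in *L3mbtl2*-KD ESCs. Among all genes tested, 2.49% were called higher and 3.21% lower. Both called genes of the 25 belong to the acrosome group, which held 7 of the 25. *Spaca1*, which encodes an acrosomal membrane protein needed to shape the acrosome, rose by at least 8.89-fold with 1 probe and at least 6.73-fold with the other, and by a smaller log2 fold change of 1.48 and 1.39 under another background correction (normexp). *Spaca7*, which encodes an acrosomal protein, was lower by at least 1.61-fold, close to the detection limit. This call depended on single samples and on the scaling, and it was lost with the replicate number as a block. With normexp the log2 fold change of *Spaca7* was -0.18, so its bound holds for the scanner's own background subtraction only. Of the protamine and transition protein genes 2 of 5 were tested, of the flagellum and head-tail genes 7 of 16, and of the CatSper genes 2 of 4. Of the spermatid kinases 1 of 4 was tested, and of the sperm-specific glycolytic genes 1 of 3. None of these tested genes was called, and the others were too dim to test. A gene is called here if any probe for it differs by over 2-fold and has an adjusted p below 0.05 in limma.

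The calls can be read against all genes. Of the 54 genes, 25 were tested, meaning that in 1 group or both, all arrays read a probe as well above background, the scanner software's mark for a spot clearly brighter than its surroundings. Among these 25, limma called 1 higher, against 2.49% of the 13651 genes tested on the array, and 1 lower, against 3.21%. Each count is 4.0% of the 25 genes, near these shares. Only 46.3% of the spermatid and sperm genes passed the detection filter, against 69.1% of all named genes. A gene can pass this filter through the group in which it is bright, as *Spaca1* and *Spaca7* did, so the 25 are not a sample of all 54.

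**Figure D1:**
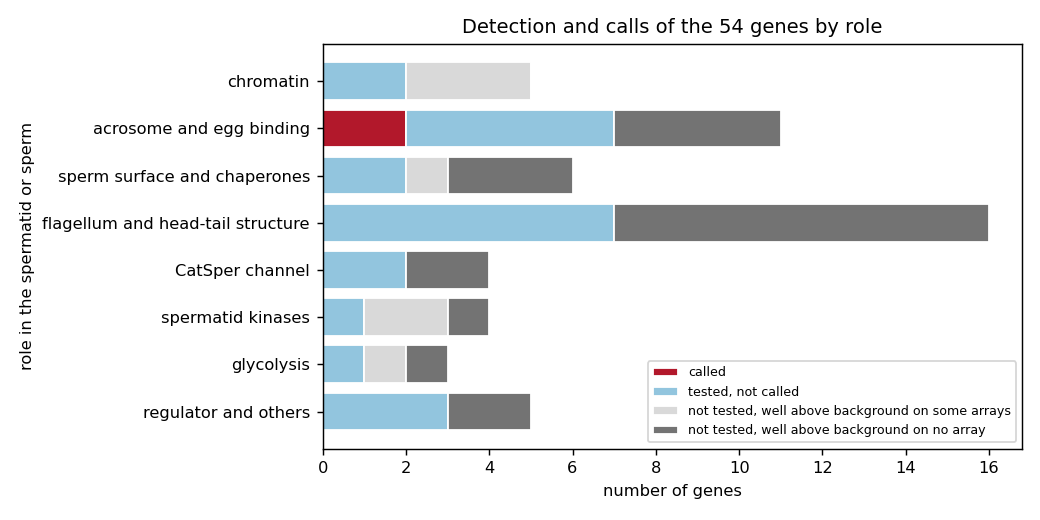
Number of genes in each role (horizontal axis), coloured by whether a gene was called, tested and not called, or not tested because its probes were too dim. The 2 called genes lie in the acrosome group, and 9 of the 16 flagellum and head-tail genes were well above background on no array.

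The siRNA target was checked first. On the scale used throughout, log2 signal relative to the 75th percentile of the same array, *L3mbtl2* was at -1.45, -1.26, -1.58 and -1.73 in *L3mbtl2*-KD replicates 1 to 4 and at 0.27, -0.18, -0.21 and -0.31 in control replicates 1 to 4. The groups did not overlap. The log2 fold change was -1.40 (SE 0.15, adjusted p = 9.44e-04 in limma), and it was -1.40 on slide 1 and -1.40 on slide 2.

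*Spaca1* was read by 2 probes to the same transcript (NM_026293). With the first probe, it was at -2.20, -3.11, -2.39 and -2.20 in the *L3mbtl2*-KD replicates and at -6.18, -5.90, -7.12 and -7.29 in the control replicates. The second probe gave -2.63, -3.40, -2.89 and -2.59 in *L3mbtl2*-KD and -6.94, -7.47, -5.72 and -7.57 in control cells. Every *L3mbtl2*-KD value lay far above every control value with both probes, and replicate 2 was the lowest of the *L3mbtl2*-KD replicates in both cases. Neither probe was well above background on any control array, so the rise is given as a bound. For a bound, each dim array is given the lowest signal that counts as well above background there, or the probe's value if larger, and the bright group is set against the mean of these. By this bound *Spaca1* was at least 8.89-fold higher with the first probe and at least 6.73-fold higher with the second.

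The fitted adjusted p of *Spaca1* was 3.26e-04 and 5.82e-04 in limma for the 2 probes, and 0.0286 was the smallest p that the two-sided exact permutation test can give with 4 against 4 samples. The fitted log2 fold changes, which rest on control signals within the background, were 4.15 (SE 0.35) and 4.05 (SE 0.39). On slide 1, which held replicates 1 and 2 of both groups, the first probe gave 3.38 and on slide 2 4.91, whereas the second gave 4.19 and 3.91. With 2 samples a group on slide 1 no gene of the array was called by limma, and the adjusted p of *Spaca1* there was 0.0691 and 0.0611, the highest over all alternatives tried (lowest adjusted p 1.34e-04 and 9.91e-05). Background correction by normexp with an offset of 50 lowered the log2 fold change of *Spaca1* to 1.48 and 1.39. *Spaca1* was called there too, and the bounds above hold for the scanner's own background subtraction. In bulk RNA, more cells with *Spaca1* mRNA and more of this mRNA per cell cannot be told apart.

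*Spaca7* stood near the detection limit in both groups. Its probe gave -5.92, -5.88, -6.24 and -5.35 in *L3mbtl2*-KD and -5.18, -3.99, -4.70 and -5.29 in control replicates, and was well above background on the 4 control arrays and on no *L3mbtl2*-KD array. The groups did not overlap, although control replicate 4 and *L3mbtl2*-KD replicate 4 were nearly equal. As a bound the gene was at least 1.61-fold lower, which is under the 2-fold threshold, whereas the fitted log2 fold change was -1.06 (SE 0.30, adjusted p = 0.0416 in limma). The call was lost with the replicate number as a block (adjusted p = 0.0526 in limma), with normexp background correction (log2 fold change -0.18, adjusted p = 0.461), with quantile normalization (-0.86, adjusted p = 0.0692) and within each slide (-1.32 and -0.80). It was also lost without *L3mbtl2*-KD replicate 1 (adjusted p = 0.0844), 2 (0.0773) or 3 (0.103) and without control replicate 2 (0.0601) or 3 (0.0996) in limma, and over all alternatives the p of *Spaca7* ranged from 0.0227, by the one-way test without adjustment, to 0.461.

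**Figure D2:**
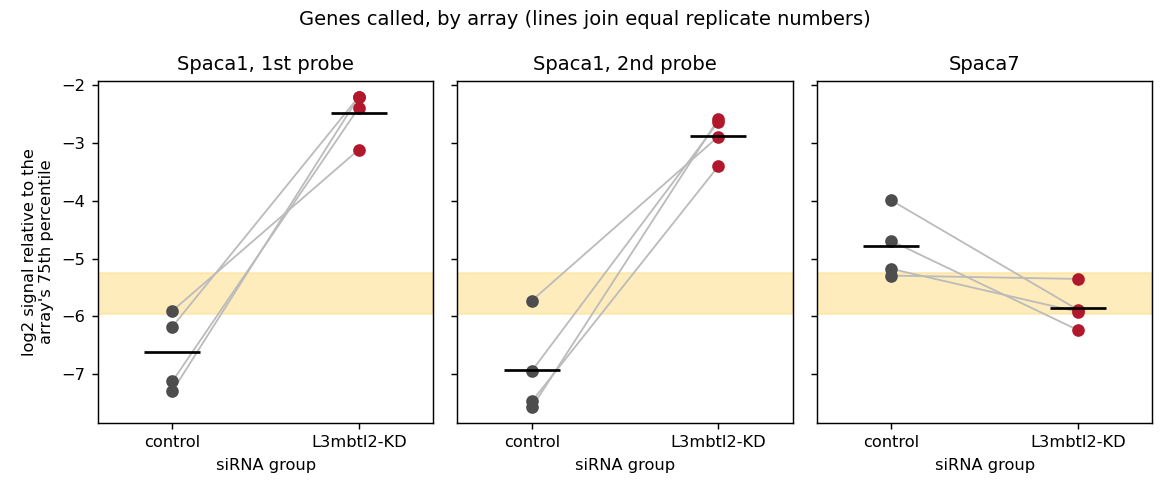
Log2 signal relative to the 75th percentile of each array (vertical axis) for both *Spaca1* probes and for *Spaca7*, with 1 point per array, grey lines joining equal replicate numbers and black bars at the group means. The yellow band spans the lowest signals well above background on the 8 arrays, from -5.96 to -5.25. The *Spaca1* points of *L3mbtl2*-KD cells lie above the band and those of control cells within or below it.

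The promoter windows of both called genes are shown because the MAX, MGA and E2F6 subunits of the complex that contains L3MBTL2 bind known DNA motifs. The sequences are those of RefSeq on build GRCm38.p6, from 250 bases before to 50 bases after the annotated start (the array files name build mm9, from which no sequence was read), and 47 of the 54 genes had an entry. Capitals mark matches to CACGTG (E-box), GCGGGA (E2F type), AGGTGTGA (T-box, as MGA binds) or TGACGTCA (CRE, as CREM binds) on either strand, so that GCGGGA on the other strand reads TCCCGC. *Spaca1* has 2 annotated starts that lie 2 bases apart, and the window of the first in the table, at chr4:34050016-34050315 (minus strand), is shown, with that of *Spaca7* at chr8:12572786-12573085 (plus strand).
Spaca1: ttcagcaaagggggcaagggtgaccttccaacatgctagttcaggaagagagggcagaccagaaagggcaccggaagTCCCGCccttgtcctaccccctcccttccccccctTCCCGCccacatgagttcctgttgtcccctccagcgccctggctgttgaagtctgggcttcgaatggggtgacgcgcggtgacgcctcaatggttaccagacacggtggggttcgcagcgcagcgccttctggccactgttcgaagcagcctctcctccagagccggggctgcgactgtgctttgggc
Spaca7: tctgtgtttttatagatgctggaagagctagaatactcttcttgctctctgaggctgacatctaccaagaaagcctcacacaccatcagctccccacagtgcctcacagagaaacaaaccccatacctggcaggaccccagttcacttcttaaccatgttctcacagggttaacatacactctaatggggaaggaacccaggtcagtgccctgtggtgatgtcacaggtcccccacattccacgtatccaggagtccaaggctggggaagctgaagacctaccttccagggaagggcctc

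The *Spaca1* window shown held 2 matches to the E2F type motif, which begin at positions -173 and -138 relative to its start, and no match to the others, and the other window held the same number of each. None of the motifs was found in the *Spaca7* window. Across the 47 windows, the E2F type motif occurred in 9 genes (19.1%), namely *Prm3*, *Spaca1*, *Zpbp2*, *Calr3*, *Odf2*, *Odf4*, *Tekt1*, *Tcp11* and *Gsg1*, against 22.0% of the 27025 genes with a RefSeq window. The E-box was present in 3 of the 47 genes (6.38%, *Spata16*, *Crisp2* and *Meig1*) and in 8.09% of all genes. The T-box motif was found for *Gapdhs* alone among the 47 (2.13%, against 1.48% of all genes), and the CRE for *Izumo1* alone (2.13%, against 2.03%). A match is a run of letters and not a measured binding site.

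The other acrosome and egg-binding genes that were well above background on all 8 arrays did not reach 2-fold. *Acrbp*, which encodes the chaperone that holds proacrosin, was at 0.48, 0.77, 0.70 and 0.74 in *L3mbtl2*-KD and 0.77, 0.84, 0.83 and 0.85 in control replicates with its brightest probe (log2 fold change -0.15, adjusted p = 0.266 in limma). A dimmer *Acrbp* probe gave -3.21, -3.12, -3.09 and -3.06 against -2.98, -2.82, -2.86 and -2.81, with no overlap (log2 fold change -0.25, adjusted p = 0.0619 in limma), and another gave -1.94, -2.02, -1.72 and -1.88 against -1.63, -2.29, -1.77 and -1.77 (-0.02). The groups were thus apart on 1 of the 3 *Acrbp* probes, and the difference passed the test on none. On that probe the adjusted p of *Acrbp* in limma was 0.0102 with the replicate number as a block and 0.0346 with the slide as a block, and over 20 alternatives the p ranged from 0.00306, by the one-way test without adjustment, to 0.623 and was under 0.05 in 5, that test included. *Izumo1*, whose product lets the sperm fuse with the egg, was at -4.95, -4.0, -4.30 and -4.57 in *L3mbtl2*-KD and -4.09, -3.33, -3.91 and -4.26 in control replicates (log2 fold change -0.56, SE 0.25, adjusted p = 0.154 in limma). Its groups overlapped, yet each *L3mbtl2*-KD value was under the control value of the same number.

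*Zpbp2*, which encodes a zona pellucida-binding protein of the acrosome matrix, pointed the other way. Its brighter probe gave -2.96, -3.54, -3.09 and -3.07 in *L3mbtl2*-KD and -3.0, -4.14, -3.68 and -3.40 in control replicates (log2 fold change 0.39, SE 0.24, adjusted p = 0.288 in limma). With the other probe the values were -3.58, -4.65, -3.54 and -3.56 in *L3mbtl2*-KD and -3.67, -5.28, -4.72 and -4.53 in control replicates (log2 fold change 0.72, SE 0.37, adjusted p = 0.21 in limma). *L3mbtl2*-KD was higher in all 4 numbered pairs with both probes, but the groups overlapped because control replicate 1 was among the highest samples and *L3mbtl2*-KD replicate 2 among the lowest. Within slide 2 alone the second probe gave 1.08 and passed the threshold, whereas slide 1 gave 0.36. The protease gene *Acr* was at -4.65, -4.80, -4.87 and -4.12 in *L3mbtl2*-KD and -4.49, -4.81, -4.0 and -4.32 in control replicates (log2 fold change -0.21, adjusted p = 0.541 in limma). *Spaca4*, which encodes an acrosomal membrane protein of the Ly6 family, was at -4.64, -4.68, -4.52 and -4.04 in *L3mbtl2*-KD and -4.35, -4.43, -4.21 and -4.20 in control replicates (log2 fold change -0.17, adjusted p = 0.463 in limma). The groups of *Acr* and *Spaca4* overlapped and these differences were within the spread between samples. *Acrv1*, *Spaca3*, *Zpbp* and *Spata16* were well above background on no array.

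Of the genes for sperm chromatin, 2 of 5 were tested and neither was called. *Prm2*, which encodes protamine 2, was at -3.98, -3.94, -4.57 and -4.35 in *L3mbtl2*-KD and -4.03, -3.62, -4.23 and -4.44 in control replicates (log2 fold change -0.13, SE 0.20, adjusted p = 0.7 in limma). *Tnp1*, which encodes transition protein 1, was at -3.54, -3.67, -4.09 and -3.99 in *L3mbtl2*-KD and -4.47, -3.30, -4.54 and -4.36 in control replicates (log2 fold change 0.35, SE 0.28, adjusted p = 0.422 in limma). Control replicates 1, 3 and 4 of *Tnp1* lay under all *L3mbtl2*-KD values, and control replicate 2 lay above them. Without that replicate the log2 fold change of *Tnp1* was 0.64, with an adjusted p of 0.0323 in limma (0.0323 to 0.802 over all alternatives). *Prm1* was well above background on 4 arrays, which were the *L3mbtl2*-KD and control replicates 3 and 4, all on slide 2. Its values were -5.88, -5.41, -3.31 and -2.90 in *L3mbtl2*-KD and -5.97, -6.99, -1.78 and -4.41 in control replicates, so the arrays of this gene separated by slide and not by siRNA. *Prm3* and *Tnp2* were well above background on 1 array each, both control.

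Among the sperm surface proteins and their chaperones, *Clgn* had groups that did not overlap. *Clgn* encodes calmegin, a chaperone of the endoplasmic reticulum needed for sperm surface proteins, and it was at -1.74, -1.82, -2.0 and -1.91 in *L3mbtl2*-KD and -1.38, -1.52, -1.66 and -1.57 in control replicates. All *L3mbtl2*-KD values were below all control values, with a log2 fold change of -0.34 (SE 0.10, adjusted p = 0.0422 in limma), well under 2-fold. Besides *Spaca1* and *Spaca7*, it was the only one of the 25 tested genes with an adjusted p under 0.05, where 9.35% of all genes tested were so higher and 10.8% lower. This p of *Clgn* ranged from 0.00429 to 0.374 over 21 alternatives and was under 0.05 in 8 of them, 1 of which was the one-way test without adjustment, and of the 8 fits without 1 sample only the one without *L3mbtl2*-KD replicate 1 (0.0457) kept it under 0.05. *Calr3*, which encodes the testis calreticulin, was at -4.18, -3.97, -4.23 and -4.05 in *L3mbtl2*-KD and -4.23, -4.32, -4.29 and -4.54 in control replicates with its brighter probe (log2 fold change 0.23, adjusted p = 0.143 in limma). The second *Calr3* probe was well above background on 3 of the control arrays and gave -3.70, -4.99, -4.88 and -4.82 against -3.19, -5.0, -4.59 and -5.55, with no difference beyond the spread. *Adam3*, *Crisp2* and *Hspa1l* were well above background on no array, and *Adam2* on 1, *L3mbtl2*-KD replicate 2, where it was at -2.88 against -7.67 to -7.29 in the other *L3mbtl2*-KD replicates.

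**Figure D3:**
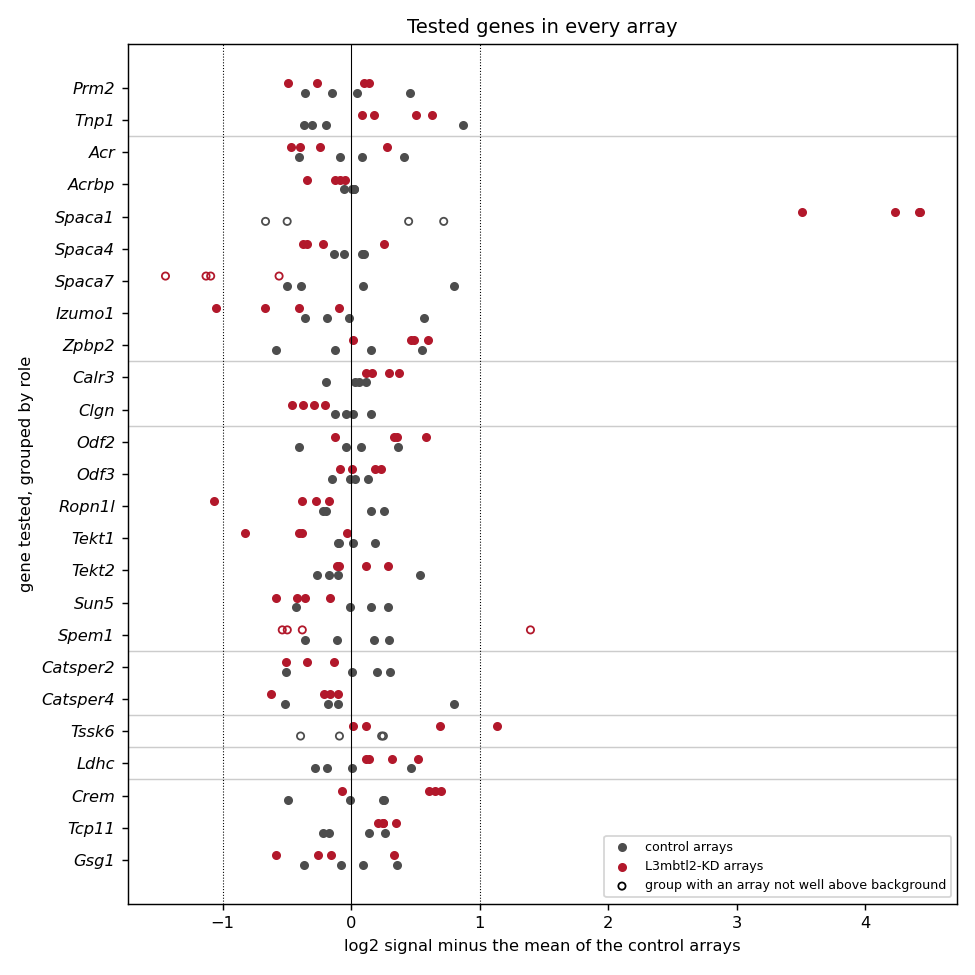
Log2 signal of each of the 25 tested genes (1 line per gene, grouped by role) minus the mean of its control arrays, in control (grey) and *L3mbtl2*-KD (red) arrays, with 1 point per array and the brightest tested probe of each gene. Open points mark a group with an array not well above background, and dotted lines a 2-fold difference from the control mean. Apart from *Spaca1* and *Spaca7*, single arrays of *Izumo1*, *Ropn1l*, *Spem1* and *Tssk6* pass a dotted line.

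The flagellum and head-tail genes showed small differences in both directions, and limma called none of the 7 tested (by the brightest probe 2 had an unadjusted p under 0.05, *Tekt1* and *Sun5*, both lower, where 18.8% of all genes tested were so lower, and the one-way test of the study called none with or without adjustment). *Ropn1l*, a fibrous sheath gene, was at -3.06, -2.37, -2.17 and -2.26 in *L3mbtl2*-KD and -2.19, -2.21, -1.84 and -1.73 in control replicates (log2 fold change -0.47, SE 0.21, adjusted p = 0.151 in limma). Its second probe gave -3.64, -3.14, -2.96 and -3.03 in *L3mbtl2*-KD and -2.91, -3.04, -2.64 and -2.66 in control replicates (log2 fold change -0.38, SE 0.17, unadjusted p = 0.0496 in limma). *L3mbtl2*-KD replicate 1 was the lowest sample with both *Ropn1l* probes, and *L3mbtl2*-KD was lower in all 4 numbered pairs. With the slide as a block the adjusted p of *Ropn1l* in limma was 0.0476 and 0.0449 for the 2 probes. *Tekt1* encodes a tektin, a filament protein of the axonemal microtubules, and was at -2.98, -2.18, -2.56 and -2.53 in *L3mbtl2*-KD and -2.24, -1.96, -2.13 and -2.25 in control replicates with one probe (log2 fold change -0.41, SE 0.16). The other *Tekt1* probe gave -3.09, -2.51, -2.79 and -2.97 in *L3mbtl2*-KD and -2.65, -2.19, -2.41 and -2.54 in control replicates (log2 fold change -0.39, SE 0.15). The *Tekt1* groups overlapped, again with *L3mbtl2*-KD replicate 1 the lowest, and the adjusted p was 0.11 and 0.105 in limma. *Sun5*, whose nuclear envelope protein anchors the tail to the head, was at -3.05, -3.28, -3.12 and -2.86 in *L3mbtl2*-KD and -2.54, -3.12, -2.41 and -2.71 in control replicates (log2 fold change -0.38, SE 0.16, adjusted p = 0.139 in limma). The adjusted p of *Sun5* in limma was under 0.05 without control replicate 2, and that of *Tekt1* without *L3mbtl2*-KD replicate 2.

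*Tekt2*, the second tektin gene, was at -2.10, -2.47, -2.49 and -2.27 in *L3mbtl2*-KD and -1.84, -2.64, -2.55 and -2.48 in control replicates (log2 fold change 0.05, adjusted p = 0.886 in limma). *Odf3*, an outer dense fibre gene, was at -3.25, -3.20, -3.43 and -3.51 in *L3mbtl2*-KD and -3.30, -3.44, -3.58 and -3.40 in control replicates (log2 fold change 0.08, adjusted p = 0.618 in limma). For both genes the groups overlapped and the difference was within the spread. *Odf2* encodes an outer dense fibre protein that is also a centriole protein of somatic cells, and its 2 probes, to different transcripts, disagreed in sign. The probe to NM_001113214 gave 2.10, 2.81, 2.58 and 2.56 in *L3mbtl2*-KD and 1.82, 2.59, 2.31 and 2.19 in control replicates (log2 fold change 0.29, SE 0.19, adjusted p = 0.343 in limma). The probe to NM_001113213 gave 1.34, 1.38, 1.18 and 1.23 in *L3mbtl2*-KD and 1.45, 1.49, 1.23 and 1.26 in control replicates (log2 fold change -0.08, SE 0.09, adjusted p = 0.615 in limma). Neither difference passed the test. *Spem1*, needed to shed the spermatid cytoplasm, was well above background on 3 *L3mbtl2*-KD and 4 control arrays, with -3.53, -5.30, -5.42 and -5.46 against -5.28, -4.63, -4.74 and -5.03, and *L3mbtl2*-KD replicate 1 stood above all other arrays. *Odf1*, *Odf4*, *Akap3*, *Akap4*, *Ropn1*, *Spag6*, *Spag16*, *Meig1* and *Smcp*, which include the main fibrous sheath and outer dense fibre genes, were well above background on no array.

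For the CatSper channel, 2 of the 4 pore subunit genes were tested. *Catsper4* was at -4.31, -3.90, -3.86 and -3.80 in *L3mbtl2*-KD and -4.21, -3.79, -3.87 and -2.89 in control replicates (log2 fold change -0.28, adjusted p = 0.511 in limma). Control replicate 4 was the highest sample of *Catsper4*, and without it the log2 fold change was -0.01 (adjusted p = 0.977 in limma). *Catsper2* was at -2.70, -3.08 and -2.91 in *L3mbtl2*-KD replicates 1 to 3 and at -2.56, -2.37, -2.27 and -3.08 in control replicates, and the fit dropped *L3mbtl2*-KD replicate 4, whose spot had an outlier flag (log2 fold change -0.33, SE 0.20, adjusted p = 0.307 in limma). In the deposited log2 table, which keeps that value, the log2 fold change of *Catsper2* was 0.14. The groups of both genes overlapped. *Catsper1* and *Catsper3* were well above background on no array.

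Of the testis-specific serine kinases, *Tssk6* alone was tested. It was well above background on 4 *L3mbtl2*-KD and 3 control arrays, at -4.0, -5.12, -5.02 and -4.44 against -4.88, -4.90, -5.23 and -5.53, and the groups overlapped (log2 fold change 0.49, SE 0.26, adjusted p = 0.232 in limma). *Tssk3* was well above background on 3 *L3mbtl2*-KD arrays and 1 control array, *Tssk1* on 1 control array and *Tssk2* on none. Of the sperm-specific glycolytic enzymes, the lactate dehydrogenase gene *Ldhc* was measured on all arrays, at -2.27, -2.47, -2.64 and -2.67 in *L3mbtl2*-KD and -2.32, -2.97, -3.07 and -2.78 in control replicates (log2 fold change 0.27, SE 0.17, adjusted p = 0.307 in limma). The second *Ldhc* probe gave -3.60, -3.70, -3.91 and -3.66 in *L3mbtl2*-KD and -3.62, -4.15, -4.35 and -3.84 in control replicates, also a log2 fold change of 0.27. *L3mbtl2*-KD was higher in all 4 numbered pairs of *Ldhc*, by less than the spread between samples. *Gapdhs* was well above background on 1 control array. *Pgk2*, named here after its values were seen, was well above background on no array, at -6.12, -5.64, -5.99 and -5.11 in *L3mbtl2*-KD and -5.88, -7.48, -7.37 and -6.99 in control replicates, so no fold is given.

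*Crem*, whose product in the testis activates many genes of this group, was read by 3 probes. With the brightest it was at -2.22, -1.50, -1.45 and -1.55 in *L3mbtl2*-KD and -2.64, -1.90, -1.89 and -2.15 in control replicates (log2 fold change 0.47, SE 0.22, adjusted p = 0.176 in limma). A second probe to the same transcript (NM_013498) gave -2.89, -2.52, -2.60 and -2.79 in *L3mbtl2*-KD and -3.30, -2.73, -3.20 and -3.31 in control replicates (log2 fold change 0.43, SE 0.15, adjusted p = 0.0808 in limma). *L3mbtl2*-KD was higher in every numbered pair, but *L3mbtl2*-KD replicate 1 and control replicate 1 were both low on the first probe and the groups overlapped on both. The third probe, to NM_001110851, was well above background on 1 control array only. *Tcp11*, which acts in sperm capacitation, was at 1.0, 0.96, 1.0 and 1.10 in *L3mbtl2*-KD and 0.89, 0.58, 1.02 and 0.54 in control replicates (log2 fold change 0.26, adjusted p = 0.17 in limma). *Gsg1*, a germ cell-enriched gene, was at -4.09, -3.60, -4.19 and -4.52 in *L3mbtl2*-KD and -3.84, -3.58, -4.01 and -4.30 in control replicates (log2 fold change -0.17, adjusted p = 0.633 in limma). The groups overlapped for both. *Spata3* and *Spata18* were well above background on no array.

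Several of these genes shifted by the same sign in each numbered pair. Where the replicate number was taken as a block, which removes what samples of one number share, 9 of the 25 tested genes had an adjusted p under 0.05 in limma by their brightest probe, against 3 without it. With the block the share was 36.0% of the 25 genes and 46.0% of all genes tested (6283), and without it 3 of 25 and 20.1% (2749). Besides *Spaca1* and *Clgn*, the 9 genes with the block were *Crem*, *Odf2* (the probe to NM_001113214) and *Zpbp2*, which were higher, and *Izumo1*, *Tekt1*, *Ropn1l* and *Sun5*, which were lower. *Acrbp* was lower with the block by 1 of its dimmer probes only, as given above. Over all probes under 0.05 with the block, apart from *Spaca1*, the log2 fold changes ran from -0.56 for *Izumo1* to 0.72 for the second probe of *Zpbp2*, and none passed the 2-fold threshold.

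As a list, the 25 tested genes had a median log2 fold change of -0.13, where the median of all 13651 genes tested was -0.01. The median was -0.13 also with the dim genes set at their bounds. It changed sign with the normalization, to 0.05 with normexp background correction and 0.01 with quantile normalization, and without single samples it ranged from -0.13 to -0.01, with -0.01 without *L3mbtl2*-KD replicate 3, -0.03 without *L3mbtl2*-KD replicate 4, and -0.04, -0.07 and -0.04 without control replicates 2, 3 and 4. Of the 25 genes, 11 had a positive and 14 a negative log2 fold change. The groups did not overlap for 1 gene that was higher (*Spaca1*), against 12.7% of all genes tested, and for 2 that were lower (*Spaca7* and *Clgn*), against 13.8%, taking the brightest probe of each gene.

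**Figure D4:**
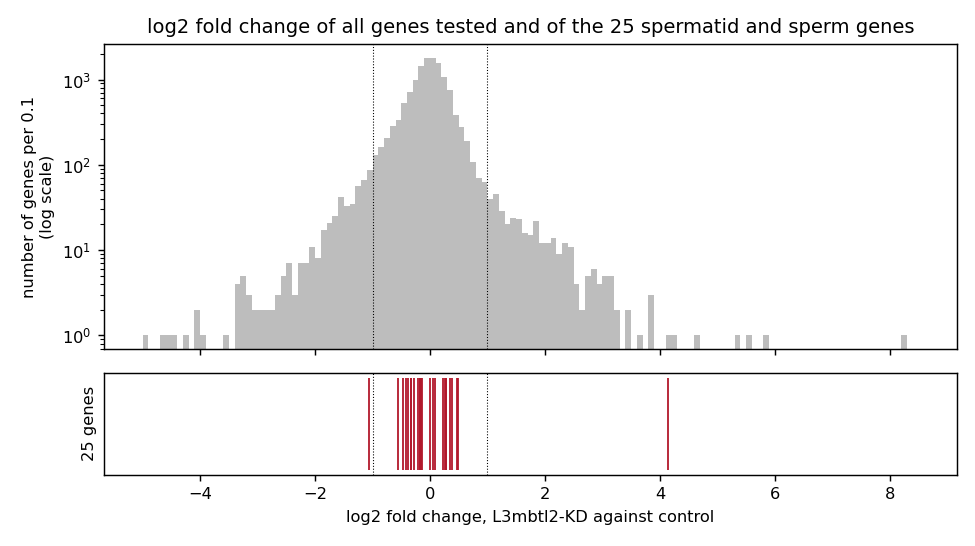
Number of genes on a log scale by log2 fold change for all genes tested (grey bars, upper panel) and the log2 fold change of each of the 25 spermatid and sperm genes (red lines, lower panel). Dotted lines mark a 2-fold change. Apart from *Spaca1* at 4.15 and *Spaca7* at -1.06, the red lines lie between -0.56 and 0.49.

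The remaining 29 genes were too dim to test. Of these, 22 were well above background on no array and 7 on some arrays but not on all of a group. The number of the 54 genes with a probe well above background was 24 to 26 on each array, and was 25, 25, 26 and 24 on *L3mbtl2*-KD arrays 1 to 4 and 26, 25, 25 and 26 on the control arrays. For the dim genes a level under the limit cannot be told from no expression.

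A wider list of 60 other spermatid and sperm genes was examined in the same way, and 56 had a probe, of which 31 were tested, with a median log2 fold change of 0.12. Limma called 4 of them higher (12.9% of those tested, against 2.49% of all genes tested) and 0 lower. This list and the further lists below were chosen with earlier results of these data known, so their shares cannot show an enrichment. *Pdha2* and *Cabyr* passed the detection filter through the *L3mbtl2*-KD arrays only. With the filter on all 8 arrays, which removes them, 2 genes of the list were called higher, *Cyct* and *Shcbp1l*. At an unadjusted p under 0.05 in limma, 10 of the 31 tested genes were higher (32.3%, against 16.9% of all genes tested) and 5 lower (16.1%, against 18.8%). The one-way test of the study called 4 higher and 0 lower with or without adjustment. Of the 13651 genes tested it called 353 higher and 470 lower without adjustment, and 289 higher and 327 lower with it. *Cyct*, the testis cytochrome c, was at 0.43, 0.29, 0.17 and 0.47 in *L3mbtl2*-KD and -0.65, -1.01, -1.13 and -1.24 in control replicates, with no overlap (log2 fold change 1.34, SE 0.14, adjusted p = 7.65e-04 in limma). *Shcbp1l*, a spindle-associated gene of male germ cells, was at -3.11, -3.08, -3.13 and -3.38 in *L3mbtl2*-KD and -4.18, -4.04, -4.24 and -4.52 in control replicates, also apart (log2 fold change 1.07, SE 0.12, adjusted p = 0.00109 in limma). *Pdha2*, the testis isoform of a pyruvate dehydrogenase subunit, was well above background on 2 control arrays and at least 3.45-fold higher (adjusted p = 0.0103 in limma). *Cabyr*, a calcium-binding gene of the fibrous sheath, was at least 2.05-fold higher with its brighter probe, which missed the threshold (adjusted p = 0.0875 in limma), and at least 2.11-fold with the other (adjusted p = 0.0144 in limma). With normexp background correction 1 gene of this list, *Cyct*, was called, and *Shcbp1l* fell under 2-fold without control replicate 4 (log2 fold change 0.98). The bounds given for *Pdha2* and *Cabyr* hold for the scanner's own background subtraction. Without control replicate 1 the median of the list was 0.06 and *Spesp1* (log2 fold change 1.02) and *Rimbp3* (1.15) were called higher too. *Spesp1* was also called higher with quantile normalization (1.06) and within slide 2 (1.11). *Dkkl1* was called lower without *L3mbtl2*-KD replicate 2 (-1.01) or control replicate 4 (-1.0).

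A further list holds genes whose products act in the maturation of ADAM3, a sperm surface protein whose own gene *Adam3* was well above background on no array. Of 13 such genes 8 were tested, with a median log2 fold change of 0.19, and limma called 2 higher, where 2.49% of all genes tested were called, and 0 lower, where 3.21% were. This list too was chosen with earlier results of these data known, so its counts cannot show an enrichment. *Lypd4*, 1 of the 2 called genes, passed the detection filter through the *L3mbtl2*-KD arrays only. At an unadjusted p under 0.05 in limma 4 of the 8 were higher and 2 lower, against 16.9% and 18.8% of all genes tested. *Tex101*, a surface protein gene of germ cells, was at 5.02, 4.78, 5.09 and 5.34 in *L3mbtl2*-KD and -2.34, -3.39, -3.70 and -3.19 in control replicates (log2 fold change 8.21, SE 0.27, adjusted p = 4.87e-06 in limma). *Lypd4*, which encodes another surface protein of the same kind, was at -0.93, -1.98, -0.41 and -0.11 in *L3mbtl2*-KD and -5.78, -7.36, -6.95 and -6.94 in control replicates, well above background on 1 control array, and at least 26.4-fold higher (adjusted p = 2.29e-04 in limma). This bound holds for the background subtraction of the scanner, and with normexp the log2 fold change of *Lypd4* was 3.16, where it was called too. For both genes every *L3mbtl2*-KD value lay far above every control value. *Ly6k* (0.97, adjusted p = 0.00891 in limma) was just under 2-fold. It was called higher as well, which makes 3 of the list, without *L3mbtl2*-KD replicate 2 (log2 fold change 1.03) or 3 (1.06), without control replicate 1 (1.12), with quantile normalization (1.02) and within slide 2 (1.19). With the filter on all 8 arrays, which removes *Lypd4*, limma called 1 gene of the list higher, *Tex101*. The median of the list changed sign there, to -0.12.

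Among 12 regulators of spermatid transcription and translation, 9 were tested, with a median log2 fold change of 0.26, and limma called 1 higher, *Brdt*, against 2.49% of all genes tested, and 0 lower, against 3.21%. At an unadjusted p under 0.05 in limma 3 of the 9 were higher and 1 lower, against 16.9% and 18.8% of all genes tested. *Brdt*, the testis bromodomain gene, differed by probe. The probe to NM_054054 gave -3.18, -3.80, -3.25 and -3.24 in *L3mbtl2*-KD and -4.81, -4.75, -5.13 and -5.31 in control replicates (log2 fold change 1.63, adjusted p = 9.62e-04 in limma), whereas the brighter probe to NM_001079873 gave -1.11, -1.07, -1.35 and -1.33 in *L3mbtl2*-KD and -1.29, -1.20, -1.74 and -1.69 in control replicates (log2 fold change 0.26, adjusted p = 0.25 in limma). With normexp background correction the first *Brdt* probe fell under 2-fold (log2 fold change 0.87). Without control replicate 4, *Spz1* was called higher too (log2 fold change 1.78, adjusted p = 0.039 in limma), against a log2 fold change of 0.88 (adjusted p = 0.513) with all samples. Without the filter on dim probes *Sox30* was called higher too. The regulators *Tcfl5* (0.81) and *Tbpl1* (0.67) were higher by less than 2-fold, with adjusted p of 0.0209 and 0.00544 in limma. Of 22 motile cilium genes (21 with a probe), which share axonemal parts with the flagellum, 12 were tested and limma called 1 higher, against 2.49% of all genes tested, and 0 lower, against 3.21%. The called gene was the cyclin gene *Ccno* (log2 fold change 2.73, SE 0.26, adjusted p = 5.33e-04 in limma). Of the 12 genes 4 had a positive and 8 a negative log2 fold change, with a median of -0.26 (-0.10 without control replicate 4), and at an unadjusted p under 0.05 in limma 3 were higher (against 16.9% of all genes tested) and 5 lower (41.7%, against 18.8%). At an adjusted p under 0.05 in limma 2 were higher and 2 lower, against 1277 and 1472 of the 13651 genes tested.

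Of 11 somatic counterparts of the sperm-specific genes, 10 had a probe and were tested, and limma called 1 higher, against 2.49% of all genes tested, and 0 lower, against 3.21% (1 higher and 0 lower at an unadjusted p under 0.05). The log2 fold change of the brightest probe was 0.03 for *Gapdh*, -0.12 for *Pgk1*, 0.02 for *Ldha*, -0.15 for *Ldhb*, 0.08 for *Calr*, -0.21 for *Canx*, 0.19 for *Hspa8*, 0.17 for *Creb1* and -0.03 for *Atf1*, none with an adjusted p under 0.05 in limma. A dimmer *Hspa8* probe had 0.35 with an adjusted p of 0.0399 in limma. *Hspa1a*, the stress-inducible counterpart of *Hspa1l*, was at -2.26, -1.12, -2.0 and -1.78 in *L3mbtl2*-KD and -4.31, -2.75, -3.61 and -2.87 in control replicates (log2 fold change 1.59, SE 0.37, adjusted p = 0.0208 in limma). This call of *Hspa1a* was lost without *L3mbtl2*-KD replicate 4 (adjusted p = 0.052) or control replicate 3 (0.0607), without the filter on dim probes (0.0521), with the adjusted one-way test (0.0617) and within slide 1 (0.334) or slide 2 (0.0546), the others by limma, and over all alternatives its p ranged from 0.00282 to 0.334.

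**Figure D5:**
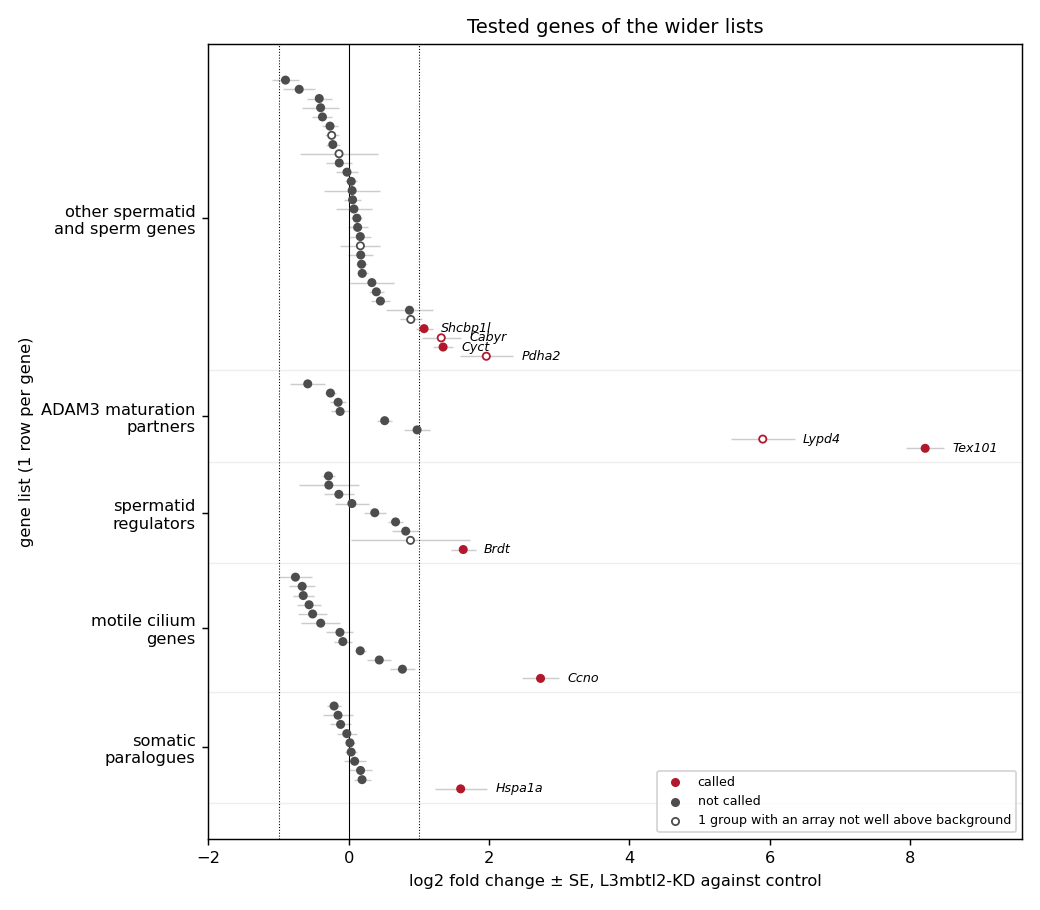
Log2 fold change with its SE (horizontal axis) for each tested gene of the wider lists, 1 line per gene, sorted within a list, with called genes in red and named. The brightest probe is shown, or the brightest called probe of a called gene, and open points mark genes with an array not well above background in 1 group, for which only a bound holds. *Tex101* and *Lypd4* lie far to the right of all other genes shown.

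Of the 9 called genes of the wider lists 8 had a promoter entry, and 4 of these held a motif (*Cyct*, *Shcbp1l* and *Ccno* the E2F type, *Brdt* the E-box and T-box) and 4 held none (*Pdha2*, *Tex101*, *Lypd4* and *Hspa1a*). The E2F type motif was thus in 3 of the 8, against 22.0% of all genes. The E-box was in 1 (against 8.09%) and the T-box motif in 1 (against 1.48%). The windows of 3 genes that held a motif are shown to let the matches be read beside those of *Spaca1*, and they were chosen for these matches. *Cyct* lies at chr2:76360404-76360703 (minus strand) and holds the E2F type motif at position -23, and *Shcbp1l* at chr1:153424959-153425258 (plus strand) holds it at position -72. *Brdt*, at chr5:107330944-107331243 (plus strand), holds no E2F type motif but a T-box match at position -113 and an E-box at position -78.
Cyct: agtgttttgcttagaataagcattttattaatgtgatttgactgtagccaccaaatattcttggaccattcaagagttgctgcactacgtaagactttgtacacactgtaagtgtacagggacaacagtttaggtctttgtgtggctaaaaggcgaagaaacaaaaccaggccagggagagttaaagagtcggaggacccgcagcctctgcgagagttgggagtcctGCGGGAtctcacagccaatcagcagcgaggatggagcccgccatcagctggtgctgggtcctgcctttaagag
Shcbp1l: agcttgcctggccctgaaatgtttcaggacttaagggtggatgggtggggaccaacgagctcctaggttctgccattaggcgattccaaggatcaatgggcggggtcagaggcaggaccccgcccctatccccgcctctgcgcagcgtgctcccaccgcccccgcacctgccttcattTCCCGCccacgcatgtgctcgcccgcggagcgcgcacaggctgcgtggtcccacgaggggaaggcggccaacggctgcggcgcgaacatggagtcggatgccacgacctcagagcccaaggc
Brdt: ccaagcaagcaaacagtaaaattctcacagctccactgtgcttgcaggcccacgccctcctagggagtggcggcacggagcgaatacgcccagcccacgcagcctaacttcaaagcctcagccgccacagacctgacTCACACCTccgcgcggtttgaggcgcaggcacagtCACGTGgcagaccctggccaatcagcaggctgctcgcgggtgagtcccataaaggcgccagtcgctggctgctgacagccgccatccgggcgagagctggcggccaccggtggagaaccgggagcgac

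In the other spermatid and sperm genes, 11 of 47 windows held the E2F type motif (23.4%), against 22.0% of all genes, 3 held the E-box (6.38%, against 8.09%), 1 the T-box motif (2.13%, against 1.48%) and 2 the CRE (4.26%, against 2.03%).

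Markers of other cells moved between the groups, and their part in the results above was not tested. The shares of all genes tested to read these counts against are 2.49% called higher and 3.21% called lower. Of 16 feeder fibroblast markers 14 were tested, 7 were called lower (*Acta2*, *Col1a1*, *Col1a2*, *Col3a1*, *Dcn*, *Pdgfra* and *Pdgfrb*) and 1 higher (*Loxl1*, which fell under 2-fold without *L3mbtl2*-KD replicate 4 at 0.93 or control replicate 3 at 0.98). With normexp background correction *Pdgfra* (log2 fold change -0.80), *Pdgfrb* (-0.84) and *Loxl1* (0.89) fell under 2-fold, so that 5 of these markers were called lower and 0 higher, and with the filter on all 8 arrays, which removes *Col3a1* and *Dcn*, 5 were called lower. Without *L3mbtl2*-KD replicate 2 (-2.11) or control replicate 3 (-2.27), *S100a4* was called lower too, as it was in fits with a block for slides or for replicate numbers, with an intensity trend and by the one-way test without adjustment. The signals of the feeder markers, relative to the 75th percentile and summed over the 14 genes, were 34.8, 41.3, 39.6 and 34.8 in *L3mbtl2*-KD and 62.9, 72.5, 71.1 and 68.4 in control replicates. *Dcn* and *Col3a1* were well above background on no *L3mbtl2*-KD array, *Lum* and *Postn* were well above background on no array, and the brightest of these markers, *Fn1*, had a log2 fold change of -0.88. Of 10 markers of spermatogonia and meiotic germ cells 8 were tested, with *Stra8* (1.34) and *Sycp1* (1.79) called higher and *Zbtb16* lower, and the summed signal was 99.5, 85.8, 70.5 and 90.9 in *L3mbtl2*-KD and 49.8, 35.8, 29.4 and 36.3 in control replicates, most of it from *Stra8*. *Spaca1*, *Spaca7* and these markers were called in the same comparison of *L3mbtl2*-KD with control, so a match between them by group adds no information. Their relation between samples of 1 group was not tested. Among 11 testis somatic cell markers with a probe, 7 were tested and 2, *Rhox5* and *Sox9*, were called lower. The other 5 were not called, and the median log2 fold change of the 7 was -0.06. The summed signal of the 7 genes was 12.2, 9.87, 10.4 and 12.4 in *L3mbtl2*-KD and 28.9, 24.8, 23.4 and 25.2 in control replicates. The call of *Sox9* was lost with normexp background correction (log2 fold change -0.50, adjusted p = 0.0548 in limma) and with the filter on all 8 arrays, which also removes *Zbtb16*. Without the filter on dim probes *Cldn11* was called lower too. Within slide 1, where limma called no gene of the array, all these marker calls were lost. Of the 13 pluripotency markers, whose summed signal was 330.0, 353.3, 312.5 and 332.4 in *L3mbtl2*-KD and 335.0, 342.1, 324.8 and 314.6 in control replicates, limma called 0 (2 higher and 4 lower at an unadjusted p under 0.05, against 16.9% and 18.8% of all genes tested). Without *L3mbtl2*-KD replicate 4, 1 of them, *Nanog*, was called lower (log2 fold change -1.74, adjusted p = 0.0271 in limma, against -1.32 and 0.0962 with all samples).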

How the data were processed

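The authors deposited, for each of the 8 arrays, spot intensity values after background subtraction in Feature Extraction 10.7.3.1, not normalized between arrays. They also deposited log2 values, by their methods from a 75 percentile shift in GeneSpring. Compared with the scanner values, this table was on a log2 scale and centred on each probe (lowest correlation 0.999), with column medians from -0.06 to 0.08. Here, each array's log2 intensities were shifted by its own 75th percentile. Control spots and any spot with an outlier flag were dropped, and replicate spots were averaged per probe. No spot was saturated. Per array, 59.5 to 66.6% of spots were well above background, and the number of arrays limits the precision. RefSeq accessions gave 26055 of 39429 probes a name. The 23517 probes that passed the filter were compared with limma 3.58.1 in R 4.3.3 (lmFit, eBayes, Benjamini-Hochberg over all probes tested), and 78 of them lacked a value on an array. Where 1 probe stands for a gene, it has the highest mean signal.

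Named with values are genes that were called, genes whose groups did not overlap, genes well above background on all 8 arrays, called genes of the other lists, and the somatic counterparts. *Prm1*, *Adam2*, *Spem1*, *Catsper2*, *Tssk6*, *Pgk2*, *Ly6k*, *Tcfl5*, *Tbpl1*, *Spesp1*, *Rimbp3*, *Dkkl1*, *Spz1*, *Sox30*, *Cldn11*, *S100a4*, *Nanog* and *Fn1* were named after their values were seen. The genes and lists were chosen with earlier results of these data known. Deviations from the group mean correlated at 0.377 to 0.581 between samples of the same replicate number and at -0.437 to 0.247 between others, so the replicate number was used as a block in an alternative. The other alternatives were normexp (offset 50), quantile normalization, the log2 table, no filter, a filter on all arrays, the slide as a block, an intensity trend, the one-way test with and without adjustment, a 1.5-fold threshold, 1 probe per gene, each slide alone and leaving out each sample. Normexp used median spot signals because the files hold no mean.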

Additional observations from a re-analysis of the deposited data

Results flagged for a closer look

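In groups of 4 samples, 95 groups of 48 genes were examined for a sample far from the other 3, and 3 groups had one. Chance flags about 1 in 20 groups. *Tnp1* was at -3.30 in control replicate 2, against -4.54 to -4.36 in the other control replicates. *Spem1* was at -3.53 in *L3mbtl2*-KD replicate 1, against -5.46 to -5.30 in the others. *Crem* was at -2.22 in *L3mbtl2*-KD replicate 1, against -1.55 to -1.45 in the others.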

How the results depend on the processing

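*Spaca1* was called in every alternative except within slide 1 and with the filter on all 8 arrays, which removes its probes, so the count of spermatid and sperm genes called higher was 0 in these 2 cases. Within slide 2 it was 2, with *Zpbp2*. The count called lower was 0 without the filter, with normexp, quantile normalization, the adjusted one-way test, the filter on all arrays, the replicate block and within each slide, and 0 to 1 without single samples. The replicate block changed no other call of these genes than that of *Spaca7*. The median of the tested genes was 0.025 without the filter, 0.046 with normexp, 0.014 with quantile normalization and -0.0039 with the log2 table, and ranged from -0.13 to -0.011 without single samples. Of the other spermatid and sperm genes, 1 was called higher with normexp, 2 with the filter on all arrays, 3 with 1 probe per gene and 0 within slide 1. With quantile normalization, within slide 2 and at 1.5-fold 5 were called higher, with *Spesp1* gained each time. At 1.5-fold 1 was called lower, and without single samples 3 to 6 were called higher and 0 to 1 lower. *L3mbtl2* was at -1.40 within slide 1 and not past the threshold there. The cause of these differences was not tested.

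Signs changed for small differences only. With normexp these were *Prm2* (0.012), *Acr* (0.031), the second *Acrbp* probe (0.038), *Spaca4* (0.046), the second *Calr3* probe (0.035), *Spem1* (0.12) and *Gsg1* (0.034). With quantile normalization they were *Prm2* (0.014), the second *Acrbp* probe (0.045), the second *Calr3* probe (0.19) and *Spem1* (0.20). *Catsper2* was at 0.14 in the log2 table, which keeps the value of *L3mbtl2*-KD replicate 4. Within slide 1, *Tekt2* was at -0.041 and *Spem1* at 0.54, and within slide 2 the second *Calr3* probe was at 0.22. Without single samples, the log2 fold change ran from -0.040 to 0.23 for *Tekt2*, from -0.16 to 0.055 for the second *Acrbp* probe, from -0.34 to 0.45 for the second *Calr3* probe, from -0.47 to 0.17 for *Spem1* and from -0.25 to 0.022 for *Prm2*. The number of arrays limits precision, and signal over background limits what can be said of the 29 untested genes.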
